A study of Mus musculus with 24 samples.

Results

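The regions described here were 480 promoter regions at which H3K9ac (histone H3 acetylated at lysine 9) ranked lower in every scramble library than in any other library. They were selected on the ranks themselves: overlapping peaks of the 12 H3K9ac peak lists were merged, and regions were kept that carried a peak in all 12 libraries and lay within 1000 bp of the transcription start (TSS) of some protein-coding gene. The highest fold enrichment of each region was then ranked within its library as a percentile, where 100 is the strongest. Of 38586 merged regions on the autosomes and X, 12098 carried a peak in all 12 libraries, 9973 of these were promoter regions, and the 3 scramble ranks lay below the 9 others at 480 of them (4.81%). The opposite pattern, with scramble above all others, was found at 852 promoter regions. Since the ranks chose the regions, every difference between scramble and the other groups is given as a description, with no test.

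The libraries came from spheroids of 4T1, a mouse mammary carcinoma cell line, grown for 5 days, and the study asked whether loss of CPT1a or KAT2a alters acetylation at H3K9. The 4 groups of 3 libraries were scramble spheroids, CPT1a knockout spheroids and KAT2a knockout spheroids, all in medium with 75 µM palmitate, and CPT1a knockout spheroids in medium with 5 mM acetate. The labels name only acetate for the last group, whereas a figure legend of the study states palmitate for both arms of the acetate comparison. According to the study's methods, all groups carried doxycycline-inducible Cas9 and a lentiviral guide kept by puromycin selection. The control guide was directed against EGFP, a sequence absent from the mouse genome, and the guides of the knockouts against exons of Cpt1a or Kat2a. Which guide a library carried is not given in the sources used here. The study's methods state at least 3 biological replicates in general, but not that the replicates of these libraries were separate cultures. The p-values therefore measure only the spread between these libraries.

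H3K9ac is laid down at active promoters by acetyltransferases such as KAT2A (GCN5), the catalytic subunit of the SAGA and ATAC coactivator complexes, which take the acetyl group from acetyl-CoA. CPT1A moves long-chain fatty acids into mitochondria, where their oxidation yields acetyl-CoA. The mark usually lies on the nucleosomes that flank a TSS, most strongly just downstream of it.

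The libraries held between 16212 and 34370 peaks, with 29176 to 34370 in scramble and 16212 to 24639 elsewhere. A read depth was not given. The summit pileup, which is the number of fragments over the highest point of a peak, was recovered approximately from fold enrichment and p under the formulas of MACS2, and its median over promoter regions lay between 33.0 and 98.3 fragments (63.9 to 76.7 in scramble). Ranks of 2 libraries correlated with a Spearman's rho of 0.595 to 0.856 over the 9973 regions. Promoters of 13 of 16 epithelial and mammary carcinoma markers carried a peak in all 12 libraries, against 0 of 8 immune, 1 of 6 fibroblast and 0 of 5 endothelial markers. Of the basal cell markers, Krt5 and Trp63 carried a peak in 0 libraries and Krt14 in 2. The fibroblast marker was Pdgfra, and Col1a1 carried a peak in 11 of the 12 libraries. Epcam and Elf3 of the epithelial markers were among the 480 regions.

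To show the DNA behind the pattern, the 200 bases upstream of the TSS are printed for Kat2a, the acetyltransferase gene knocked out in 1 of the groups, and for the 5 regions with the widest gap between the highest scramble rank and the lowest other rank. The sequences are of the mouse reference GRCm38, read 5′ to 3′ on the strand of the gene, and capitals mark CpG dinucleotides. They lie at chr11:100712466-100712665 (minus strand) for Kat2a, chr2:164911758-164911957 (minus) for Zfp335, chr11:72607083-72607282 (plus) for Ube2g1, chr11:49712724-49712923 (minus) for Cnot6, chr3:122293936-122294135 (plus) for Bcar3 and chr19:5273120-5273319 (minus) for Pacs1. The Cnot6 stretch begins 13 bases upstream of the chosen TSS so that no annotated exon is printed, and that of Bcar3 lies before the TSS of a transcript annotated as a retained intron.
Kat2a: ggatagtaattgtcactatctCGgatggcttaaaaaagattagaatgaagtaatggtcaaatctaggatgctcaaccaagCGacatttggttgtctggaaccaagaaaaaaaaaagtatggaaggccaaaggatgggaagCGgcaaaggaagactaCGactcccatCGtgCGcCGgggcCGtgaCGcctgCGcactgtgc
Zfp335: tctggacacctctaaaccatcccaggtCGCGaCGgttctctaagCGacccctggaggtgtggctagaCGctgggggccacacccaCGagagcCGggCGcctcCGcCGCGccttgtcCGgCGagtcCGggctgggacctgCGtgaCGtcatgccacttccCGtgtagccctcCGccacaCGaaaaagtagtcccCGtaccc
Ube2g1: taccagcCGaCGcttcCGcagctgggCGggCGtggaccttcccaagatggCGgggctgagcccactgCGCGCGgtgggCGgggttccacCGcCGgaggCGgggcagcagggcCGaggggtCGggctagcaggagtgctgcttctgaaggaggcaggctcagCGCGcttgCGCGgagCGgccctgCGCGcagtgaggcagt
Cnot6: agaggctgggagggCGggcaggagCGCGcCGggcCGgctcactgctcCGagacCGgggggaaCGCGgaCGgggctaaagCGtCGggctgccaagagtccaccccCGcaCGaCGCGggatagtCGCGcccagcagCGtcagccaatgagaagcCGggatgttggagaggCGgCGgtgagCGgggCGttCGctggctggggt
Bcar3: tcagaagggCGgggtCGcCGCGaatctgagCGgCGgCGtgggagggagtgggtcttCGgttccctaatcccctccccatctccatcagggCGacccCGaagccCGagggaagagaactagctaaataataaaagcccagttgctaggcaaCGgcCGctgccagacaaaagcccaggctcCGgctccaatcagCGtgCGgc
Pacs1: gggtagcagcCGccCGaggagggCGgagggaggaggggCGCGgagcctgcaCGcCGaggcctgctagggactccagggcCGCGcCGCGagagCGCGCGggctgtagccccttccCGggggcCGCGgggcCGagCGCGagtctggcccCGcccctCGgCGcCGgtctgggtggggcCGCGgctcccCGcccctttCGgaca

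The Kat2a stretch held 10 CpG and 47.5% GC, the least of the 6, and the Pacs1 stretch 28 CpG and 80.5% GC, the most. The GC box GGGCGG, which SP and KLF factors bind, occurred on either strand 4 times upstream of Pacs1, 2 times upstream of Ube2g1 and 1 time each upstream of Cnot6 and Bcar3. The letters of the cyclic AMP response element, TGACGTCA, occurred 1 time upstream of Zfp335. The YY1 motif AAGATGGC occurred 1 time upstream of Ube2g1, and the CCAAT box 1 time each upstream of Cnot6 and Bcar3. None of the motifs searched occurred in the Kat2a stretch, which says only that these letters are not in this window.

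Zfp335 had the widest gap. The gene encodes a zinc finger protein that binds promoters and is needed for neural progenitors. In its region (chr2:164909675-164912895, GC 57.2%), ranks were 18.5, 19.02 and 36.1 in scramble, 78.5, 89.8 and 97.1 in CPT1a knockout, 83.4, 80.0 and 77.9 in CPT1a knockout given acetate, and 85.5, 80.7 and 79.1 in KAT2a knockout. The highest scramble rank thus lay 41.8 percentiles below the lowest of the other 9, while the 3 other groups overlapped one another. The deposited fold enrichments behind these ranks were 11.2, 11.3 and 14.7 in scramble and 30.3 to 44.6 in the other 9 libraries. In such bulk libraries, fewer cells that carry the mark and less mark per cell cannot be told apart.

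Ube2g1, which encodes a ubiquitin-conjugating enzyme, came next (chr11:72606337-72609933). Its ranks were 17.3, 31.5 and 54.6 in scramble, 97.8, 98.3 and 97.1 in CPT1a knockout, 93.4, 90.4 and 87.2 after acetate and 97.1, 91.6 and 96.7 in KAT2a knockout. The scramble libraries spread widely at this promoter (SD 18.8), whereas the other 9 all ranked at 87.2 or above, with CPT1a knockout above every acetate library. Fold enrichment was 10.9, 14.4 and 18.8 in scramble and 31.8 to 54.8 elsewhere.

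Cnot6 encodes a deadenylase of the CCR4-NOT complex, which shortens poly(A) tails. Its ranks (chr11:49710371-49714038) were 36.9, 44.5 and 53.1 in scramble, 96.8, 94.9 and 84.6 in CPT1a knockout, 96.3, 92.0 and 85.9 after acetate and 93.2, 94.0 and 96.0 in KAT2a knockout. At Bcar3, an adaptor protein linked to antiestrogen resistance of breast cancer cells, the scramble ranks were nearly equal (26.6, 25.7 and 26.1) and the other 9 ran from 56.2 to 84.5. At Pacs1, which sorts membrane proteins to the trans-Golgi network, ranks were 10.1, 26.4 and 12.8 in scramble and 54.0 to 83.1 elsewhere. At Zfp335, Cnot6, Bcar3 and Pacs1 the 3 other groups overlapped one another.

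The other 7 of the 12 widest gaps, between 24.5 and 25.8 percentiles, were Nsun5 (an rRNA methyltransferase), Srsf6 (a splicing factor), Cd2ap (an adaptor at cell junctions), Cplane1 (a ciliogenesis factor), the shared region of Arf5 and Gcc1 (both of the Golgi), E4f1 (a zinc finger regulator of the cell cycle) and Rnf213 (a large ubiquitin ligase). Srsf6 moved most of these, from a mean rank of 35.2 ± 18.8 in scramble (SD, n = 3) to 97.5 ± 1.26 in CPT1a knockout, to 91.7 ± 3.48 when acetate was given and to 90.8 ± 7.94 in KAT2a knockout.

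**Figure D1:**
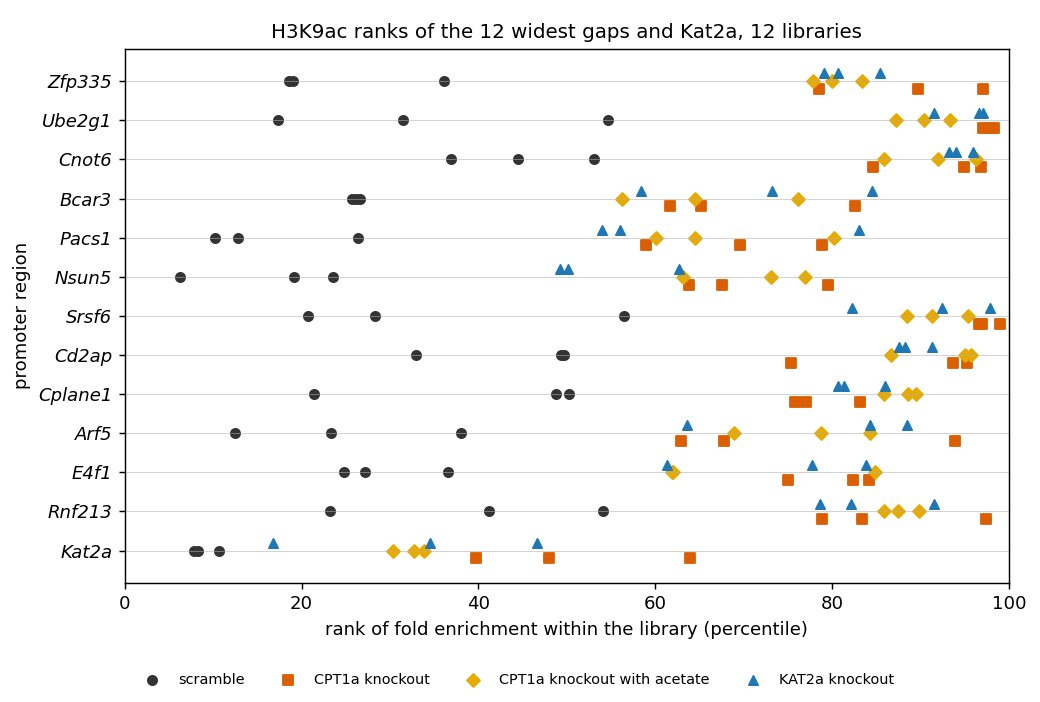
Rank of fold enrichment within the library (x axis, percentile) at the 12 promoter regions with the widest gap and at Kat2a (y axis). Each point is a library, with scramble as circles, CPT1a knockout as squares, CPT1a knockout with acetate as diamonds and KAT2a knockout as triangles. The circles lie left of every other point, by construction of the choice, and at Kat2a the nearest KAT2a knockout library ranks at 16.8 against 10.6 for the highest scramble library.

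By the mean difference rather than the gap, 8 further regions stood out, with the other 9 libraries 49.3 to 58.7 percentiles above scramble. They belonged to Zfp1 (a zinc finger gene), Mob1b (a Hippo pathway activator), Pitpna (a phosphatidylinositol transfer protein), Dip2c, Usf2 (an E-box binding factor), Kmt5b (an H4K20 methyltransferase), Letm2 and Ptov1. Several spread widely. At Zfp1 the mean rank with acetate was 62.6 ± 33.6, and 1 of its libraries, at 27.1, came close to the highest scramble library at 23.0. At Kmt5b the scramble ranks were 17.3, 76.7 and 46.4, while all other libraries lay between 92.9 and 98.9.

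At the boundary of the rule, the gap was 0.0301 percentiles at Prps2, 0.015 at Atl3 and 0.01 at Ppp2ca. Just outside it, Pcgf3, Kdelr1 and Srsf5 had gaps of 0.0, -0.0100 and -0.0150. Pcgf3 ranked at 65.2 ± 12.1 in scramble and at 87.7 on average elsewhere, and Ppp2ca, inside the boundary, at 81.1 ± 15.5 and 96.3. Over all 480 regions the median gap was 4.35 percentiles (interquartile range 1.66 to 8.82). It exceeded 10 percentiles at 93 regions (19.4%) and was under 1 percentile at 80 (16.7%).

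The regions covered the whole range of H3K9ac strength. In scramble, 238 (49.6%) had a mean rank below 25, 135 lay from 25 to 50, 85 from 50 to 75 and 22 above 75. The median of the mean ranks was 25.4 in scramble and 58.9 over the other 9 libraries, and the median difference was 25.5 percentiles (interquartile range 17.1 to 33.4). Only 48 regions crossed the middle completely, with all 3 scramble ranks below 50 and all 9 others above 50. The median rank of the 480 regions was 22.8, 27.1 and 25.2 in the scramble libraries, 63.8, 60.2 and 66.6 in CPT1a knockout, 54.7, 56.4 and 54.9 with acetate, and 54.0, 58.5 and 58.5 in KAT2a knockout.

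**Figure D2:**
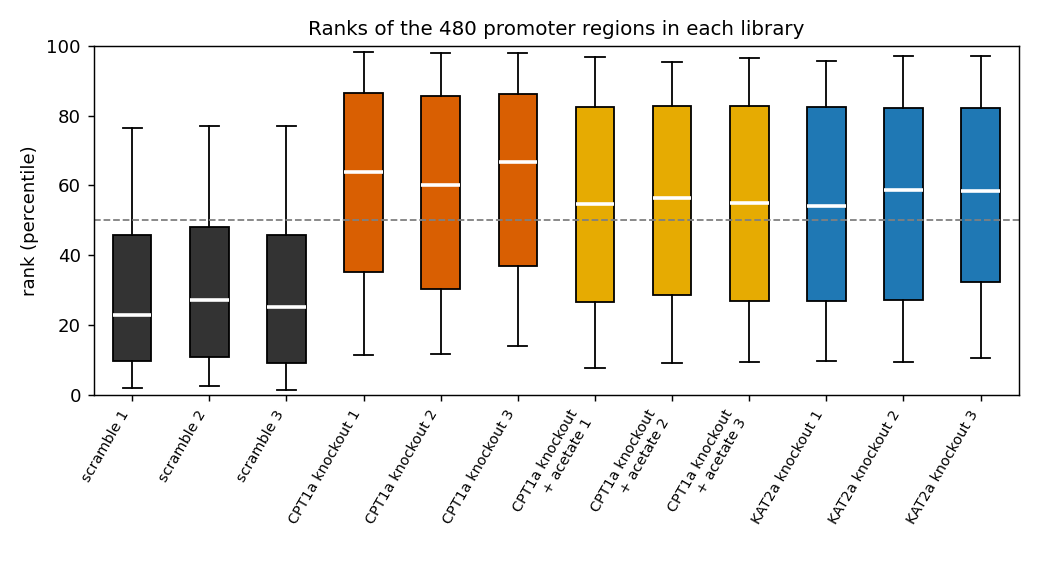
Ranks of the 480 regions (y axis, percentile among 9973 promoter regions) in each of the 12 libraries (x axis). Boxes span the quartiles with the median in white, whiskers the 5th to 95th percentiles of the regions, and the dashed line is the middle rank of 50. The 3 scramble medians lie between 22.8 and 27.1 and the 9 others between 54.0 and 66.6.

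The fold enrichment of a peak is its summit pileup divided by the local background used by the caller, with 1 added to each, and both were looked at apart. Whether that background came from the H3K9ac library or from its input is not given in the sources used here. By rank of the pileup alone, all 3 scramble libraries lay below the 9 others at 379 of the 480 regions (79.0%), against 15.3% of all promoter regions. The median pileup rank of the 480 regions was 29.9 ± 2.43 in scramble, 65.6 ± 2.19 in CPT1a knockout, 57.4 ± 1.31 after acetate and 57.6 ± 0.147 in KAT2a knockout (SD over libraries, n = 3). The background moved the other way. Its median rank was 67.7 ± 0.871 in scramble, 51.8 ± 2.24 in CPT1a knockout, 56.1 ± 2.55 after acetate and 54.1 ± 2.52 in KAT2a knockout. At 35 regions (7.29%) all scramble background ranks lay above the others, against 0.933% of all promoter regions. Both numbers come from the contrast that chose the regions, so nothing is read from these shares.

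At Zfp335, the recovered pileup was 66.5, 55.9 and 53.9 fragments in scramble and 48.6 to 140 elsewhere, and the background 5.00, 4.02 and 2.73 fragments in scramble and 0.559 to 3.00 elsewhere. The values are not scaled between libraries. CPT1a knockout replicate 3 had the lowest pileup of all libraries at this promoter and a rank of 97.1, in a library whose median pileup over promoter regions was 33.0 fragments.

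Scramble peaks at these regions were also more often divided. A single peak covered 43.8% ± 8.68 of the regions in scramble, 81.6% ± 2.62 in CPT1a knockout, 66.5% ± 6.92 after acetate and 75.6% ± 5.81 in KAT2a knockout, and the values over all promoter regions were similar (46.3%, 79.7%, 66.8% and 74.8%). The strongest summit lay a median of 486 ± 24.1 bp from the TSS in scramble, against 299.8 ± 8.25 bp for CPT1a knockout, 324 ± 6.17 bp when acetate was given and 318.5 ± 4.27 bp for KAT2a knockout. Over all promoter regions it was 561 ± 25.5, 311 ± 2.08, 370 ± 1.73 and 350 ± 13.1 bp. Covered length, by rank, was lowest in all scramble libraries at 88 regions (18.3%), against 10.5% of all promoter regions, and its median rank stayed between 40.9 and 49.1 in the 12 libraries.

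**Figure D3:**
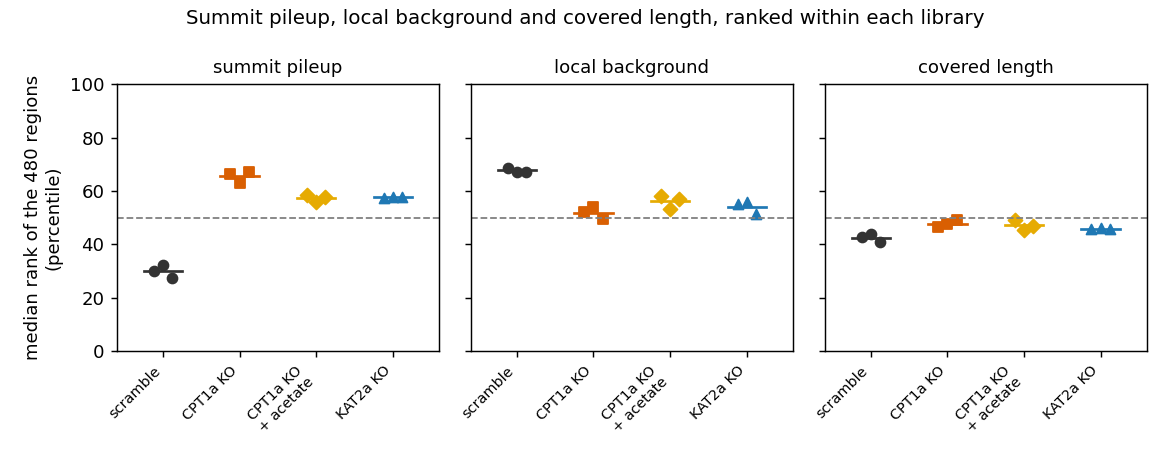
Median rank (y axis, percentile) of the 480 regions by summit pileup, local background and covered length in each library (points), with the mean of each group as a line and the middle rank of 50 dashed. By pileup the scramble libraries lie at 27.4 to 32.3 and the others at 56.0 to 67.3, and by background scramble lies at 67.2 to 68.8 and the others at 49.4 to 58.2.

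The regions were rich in GC, a property that the rule did not use directly. Their median GC content was 54.5% (interquartile range 51.0 to 57.9), against 50.04% (47.0 to 53.5) for all promoter regions and 46.0% for the 852 regions with scramble highest. Of the 480 regions, 241 (50.2%) fell in the quintile of promoter regions with the most GC and 22 (4.58%) in the quintile with the least. In other terms, the regions made up 12.1% of the richest quintile, 5.17%, 3.46% and 2.26% of the next, and 1.1% of the poorest. For the 852 opposite regions the order was reversed, from 1.0% to 22.7%. The ratio of observed to expected CpG had a median of 0.588 in the regions and 0.510 in all promoter regions.

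The libraries themselves differed in how rank went with GC. Over the 9973 promoter regions, Spearman's rho between rank and GC was -0.404, -0.357 and -0.445 in the scramble libraries, -0.170, -0.172 and -0.0935 in CPT1a knockout, -0.209, -0.130 and -0.186 after acetate and -0.209, -0.219 and -0.207 in KAT2a knockout. The regions share a library and their base composition is fixed, so these coefficients describe the libraries. When promoter regions were sorted into 50 bins by GC and the median rank of a bin was subtracted from its regions in each library, 394 regions met the rule, and 200 of the 480 were among them. The part of base composition in the pattern was not tested further. At 166 regions the rule was met in every one of 3 other rankings, by -log10 p, after removal of the GC trend and by recovered pileup. These 166 included 10 of the 12 widest gaps (not Cd2ap or Rnf213) and 7 of the 8 further regions with the largest mean difference. The exception was Pitpna, which did not meet the rule after removal of the GC trend.

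**Figure D4:**
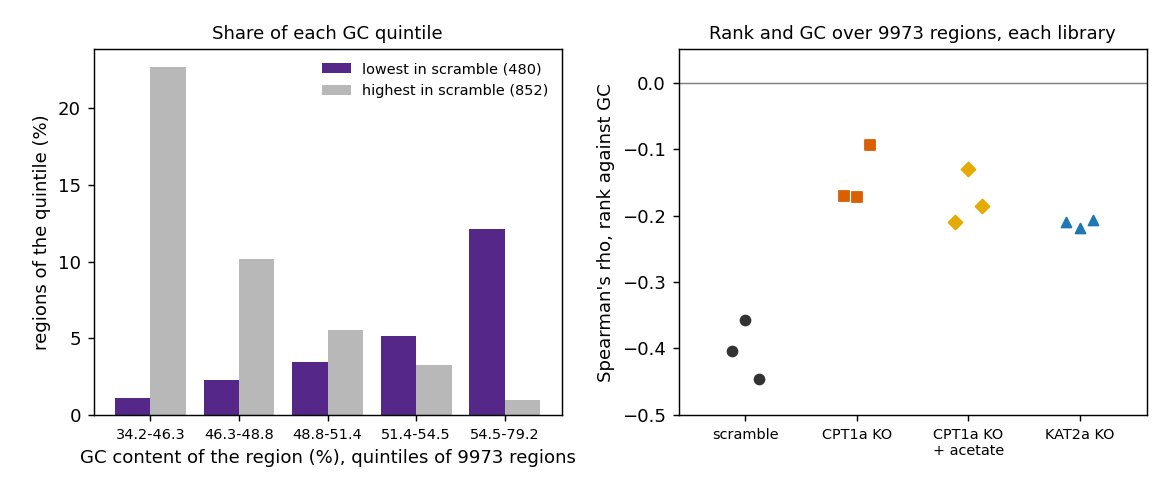
Left, the share of each quintile of promoter regions by GC content (x axis, % GC; y axis, % of the quintile) that ranked lowest (dark bars, 480 regions) or highest (grey bars, 852 regions) in all scramble libraries; the dark bars run from 1.1% to 12.1%. Right, Spearman's rho between rank and GC in each library (points), which lies between -0.445 and -0.357 in scramble and between -0.219 and -0.0935 elsewhere.

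In the window from 250 bases before to 50 bases after the TSS, the GC box GGGCGG occurred on either strand in 379 of the 480 regions (79.0%), against 68.7% of all promoter regions. The AP-1 motif TGANTCA occurred in 8 (1.67% against 4.68%), the NF-κB motif GGGANTTTC in 2 (0.417% against 1.21%) and the ETS motif CCGGAAGT in 26 (5.42% against 8.57%). The CCAAT box was found in 35.2% against 37.7%, the TATA box TATAAA in 5.21% against 5.99%, the CRE in 4.79% against 3.54% and the E-box CACGTG in 8.54% against 10.3%. For the NRF1 core GCGCATGCG the shares were 3.12% and 3.81%, for YY1 (AAGATGGC) 4.17% and 4.88%, for ZBTB33 (TCTCGCGAG) 1.88% and 1.52% and for the ZNF143 core ACTACAATT 0.833% and 0.832%. A GC box is itself made of G and C, and these shares were not adjusted for GC. TSSs of coding genes on both strands lay in 42 regions (8.75%), against 13.3% of all promoter regions. Regions were found on every chromosome considered. They were most frequent on chromosomes 11 (56 of 835, 6.71%), 5 (42 of 644, 6.52%) and X (18 of 283, 6.36%). They were least frequent on chromosomes 18 (5 of 245, 2.04%) and 13 (8 of 386, 2.07%).

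Coding genes with a TSS in the regions numbered 530 of the 10825 in all promoter regions (4.9%). The gene lists below were chosen by hand or by gene symbol and are partial, so each share describes its list only. Of 37 genes for lysine acetyltransferases and their SAGA or ATAC partners with a promoter region, 5 lay in the regions (13.5%) and 2, Taf9 and Taf12, in the opposite set (5.41%, against 9.15% of all coding genes). Kat2a itself was among the 5. Its region (chr11:100710863-100714910, GC 54.9%), shared with Hspb9, ranked at 7.86, 10.6 and 8.31 in scramble, 39.8, 48.0 and 64.0 in CPT1a knockout, 30.4, 32.7 and 33.8 after acetate and 46.6, 16.8 and 34.6 in KAT2a knockout. The promoter was thus among the weakest in every scramble library, the acetate libraries lay below all CPT1a knockout libraries, and 1 KAT2a knockout library lay close to scramble. Kat2a did not meet the rule once the GC trend was removed. H3K9ac at the promoter does not check the knockout, whose guides target exons.

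The other 4 genes of this list act with KAT2A or beside it. Usp22 and Atxn7l3 belong to the deubiquitinase module of SAGA, and Ncoa1 and Ncoa2 encode coactivators of nuclear receptors. Atxn7l3 ranked at 69.3, 55.7 and 51.6 in scramble and 82.1 to 97.0 elsewhere, and met the rule in all 3 other rankings. Usp22 spread more, with 7.61, 58.9 and 41.6 in scramble and 59.9 to 91.2 elsewhere. Ncoa1 was tight in scramble (12.7, 13.1 and 13.2) and highest in CPT1a knockout (70.4, 32.0 and 54.5), against 23.2 to 32.0 in the 6 other libraries. Ncoa2 lay at 46.8, 33.8 and 42.9 in scramble and 55.9 to 91.8 elsewhere. Usp22, Ncoa1 and Ncoa2 did not meet the rule once the GC trend was removed.

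Of 40 listed genes of acetyl-CoA supply and of fatty acid and sterol synthesis, 3 lay in the regions (7.5%) and 2, Acss2 and Mdh1, in the opposite set (5.0%). Mvd and Fads1, of sterol and fatty acid synthesis, were members but are not on the list. Srebf2, the transcription factor that drives cholesterol synthesis, ranked at 67.7, 65.4 and 58.9 in scramble and 77.0 to 91.1 elsewhere. Insig1, which holds the SREBP complex in the endoplasmic reticulum, ranked at 9.6 to 10.5 in scramble and 13.3 to 69.8 elsewhere. Slc25a1, the mitochondrial citrate carrier, ranked at 7.39 to 15.0 in scramble and 16.8 to 40.7 elsewhere. Srebf2, Insig1 and Slc25a1 all had more GC (53.9% to 59.8%) than the median promoter region and did not meet the rule after removal of the GC trend. Of 33 listed genes of the carnitine shuttle and fatty acid oxidation, 2 lay in the regions (6.06%) and 1, Acadm, in the opposite set (3.03%). The 2 were Echs1, an enoyl-CoA hydratase of mitochondrial beta-oxidation whose region also holds Paox, and Ppard, a nuclear receptor for fatty acids. Echs1 ranked at 17.5 to 51.3 in scramble and 56.6 to 70.2 elsewhere, Ppard at 66.9 to 90.5 and 94.6 to 99.4. Ppard did not meet the rule after removal of the GC trend, and Echs1 did not by recovered pileup.

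Of 39 listed genes of NF-κB signaling, 1 lay in the regions (2.56%) and 6 in the opposite set, among them Rel, Tnfaip3 and Ikbkg (15.4%, against 9.15% of all coding genes in promoter regions). Bcl10 and Tnip2, which also act in NF-κB signaling, were members but are not on the list. The opposite set was not searched beyond the list. The 1 listed gene was Ikbkb, the IκB kinase that releases NF-κB from its inhibitors. Its ranks were 38.8, 9.99 and 28.7 in scramble, 62.4, 50.8 and 54.2 in CPT1a knockout, 51.7, 42.4 and 56.3 after acetate and 64.9, 65.1 and 70.8 in KAT2a knockout. It met the rule in all 3 other rankings. Of 26 genes of epithelial-mesenchymal transition and adhesion, 1 lay in the regions (3.85%), Epcam, an adhesion molecule of epithelial cells, which did not meet the rule after removal of the GC trend. None of 36 deacetylases and acetyl-lysine readers did.

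Other gene lists were counted only. Symbols that start with Rab, Arf or Arl gave 8 of 77 (10.4%). Among them, Arl2bp, Arl6ip4 and Rab11fip3 are binding or interacting proteins and not small GTPases. Ubiquitin-specific proteases gave 5 of 44 (11.4%), AP-1, Myc and early response genes 3 of 31 (9.68%) and kinase and phosphatase symbols 11 of 168 (6.55%). The solute carrier symbols matched gave 9 of 150 (6.0%). This match missed the members Slc35d1, Slc35b2 and Slc35e2 and took in Slc9a3r2, a scaffold protein. H3K9 methyltransferases and demethylases gave 1 of 17 (5.88%). Oxidative phosphorylation subunits gave 4 of 75 (5.33%), without the member Cyc1, which is not on that list. Splicing factors gave 2 of 40 (5.0%), C2H2 zinc finger genes 17 of 356 (4.78%), cell cycle genes 2 of 44 (4.55%), Tmem genes 7 of 158 (4.43%), hypoxia and glycolysis 1 of 27 (3.7%), DNA repair 1 of 32 (3.12%) and proteasome subunits 1 of 47 (2.13%). No member was found among the listed 83 cytosolic and 78 mitochondrial ribosomal protein genes, 66 replication-dependent histone genes, 40 translation factors, 25 heat shock and unfolded protein response genes, 23 developmental transcription factors, 12 Hox genes and 2 clustered protocadherins. The lists of stress response genes and developmental factors are partial. Members outside them included Dnajc3 and Sdf2l1 of the unfolded protein response and the developmental transcription factors Lhx6 and Pitx3. The opposite set held 991 of all 10825 coding genes (9.15%), 24 of the histone genes (36.4%), 9 of the cytosolic ribosomal protein genes (10.8%) and 12 of the mitochondrial ones (15.4%). Histone genes lie in clusters, so they are not independent of one another.

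The groups other than scramble were also compared with each other. The rule required each of their 9 ranks to lie above scramble, so these ranks are not independent of it, and the counts, medians and shares that follow are a description of the selected regions. Each region was tested by limma on the ranks of all 9973 promoter regions, with Benjamini-Hochberg adjustment over all of them. The first 2 comparisons share the CPT1a knockout libraries, and the median standard error of a difference was 7.81 percentiles in the 480 regions, against 9.75 over all promoter regions.

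With acetate, 0 of the 480 regions passed an adjusted p of 0.05, as did 0.0% of all promoter regions. At an unadjusted p under 0.05 there were 48 (10.0%), against 8.15% of all promoter regions, with 1 higher (0.208% against 3.58%) and 47 lower (9.79% against 4.57%) than in CPT1a knockout. The median difference was -4.58 percentiles in the regions and -0.471 over all promoter regions, and 345 of the 480 (71.9%) lay lower with acetate, against 52.6% of all. In KAT2a knockout against CPT1a knockout, 0 regions passed, against 0.0201% of all promoter regions (2 regions). At an unadjusted p there were 52 (10.8%, against 10.1%), 6 higher (1.25% against 5.17%) and 46 lower (9.58% against 4.95%). The median difference was -3.92, against -0.241 over all promoter regions, and 334 of the 480 (69.6%) lay lower, against 51.0%. By mean rank, 278 of the 480 regions (57.9%) were thus highest in CPT1a knockout, against 36.4% of all promoter regions.

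In KAT2a knockout against CPT1a knockout with acetate, 0 of the regions passed, against 0.0602% of all promoter regions (6 regions), and 24 did at an unadjusted p (5.0% against 7.09%), 14 higher in KAT2a knockout (2.92% against 3.96%) and 10 lower (2.08% against 3.13%). The median difference was 0.794 percentiles in the regions and 0.348 over all promoter regions, and it fell to 0.0318 without acetate replicate 1 and to 0.231 without KAT2a knockout replicate 3 and rose to 1.38 without KAT2a knockout replicate 1.

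**Figure D5:**
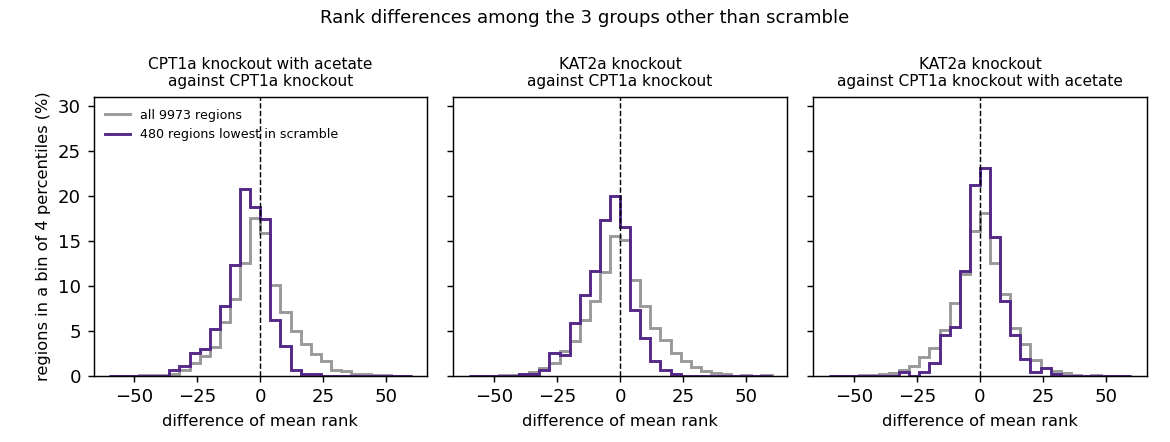
Distribution of the differences of mean rank (x axis, percentiles; y axis, % of regions per bin of 4 percentiles) for the 3 comparisons among the groups other than scramble, in the 480 regions (dark line) and in all 9973 promoter regions (grey line). The dark line is shifted left of 0 in the first 2 panels (medians -4.58 and -3.92) and centred in the third (0.794).

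The members with the smallest p in each comparison did not pass the adjustment. With acetate against CPT1a knockout these were Kptn, a subunit of a lysosomal regulator of mTORC1 (7.07 ± 1.97 against 26.8 ± 7.04, SD, n = 3, limma adjusted p = 0.245), and Ccdc120, a protein of the centrosome (5.11 ± 1.15 against 18.4 ± 3.04, limma adjusted p = 0.406). In KAT2a against CPT1a knockout they included Cldn23, a claudin of tight junctions (23.8 ± 6.38 against 8.97 ± 1.08, limma adjusted p = 0.22). In KAT2a knockout against acetate they were Gch1, the first enzyme of tetrahydrobiopterin synthesis (17.2 ± 2.16 against 5.35 ± 2.96, limma adjusted p = 0.26), and Epcam. Epcam ranked at 13.7, 16.1 and 17.7 in scramble, 36.1, 39.1 and 30.8 in CPT1a knockout, 20.1, 23.4 and 23.0 after acetate and 56.3, 47.2 and 50.3 in KAT2a knockout, so the groups did not overlap, and the difference between the last 2 was 29.1 ± 7.08 (SE, limma adjusted p = 0.308). At Kat2a itself, the difference with acetate was -18.3 ± 9.63 and that between the knockouts -17.9 ± 9.63 (limma adjusted p = 0.64 and 0.553).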

How the data were processed

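The deposited peak lists of 12 H3K9ac libraries were used, 1 list per library, and the 12 inputs were not analysed here. The labels' processing notes name FastQC, Bowtie2, SAMtools, deepTools, MACS2 and the builds mm10 and dm6, whereas the methods name BWA on mm10 and Picard, so the aligner is uncertain. Caller settings and the use of inputs are not given in the sources used here, and the labels and methods give different catalogue numbers for the antibody. Values made by the authors' caller were the deposited fold enrichment (a ratio of summit pileup to local background) and, for each peak, a -log10 p and a -log10 q, on scales of their own library. The smallest -log10 q was 2.00052. Drosophila chromatin was spiked in per the study's methods, but no spike-in scaling was applied here, so the ranks do not measure total H3K9ac.

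Peaks of the autosomes (1 to 19) and X were merged at 1 bp of overlap, and TSSs were those of all transcripts of protein-coding genes in GENCODE vM21 (GRCm38, the build of the files; 0 peaks ran past a chromosome end). Chromosome Y peaks (11 to 45 per library) were left out. Ranks avoid scaling between libraries but hide any change shared by all regions. A region was named by the coding gene whose TSS lay nearest to its median summit, and windows and sequences used the principal coding transcript of that gene where one lay near. GC and sequences came from GRCm38 and motifs were exact matches on either strand. Comparisons were made in R 4.3.3 with limma 3.58.1 on rank percentiles (trended variance, Benjamini-Hochberg over 9973 regions, threshold 0.05, two-sided), after the script was tested on simulated data. Other steps used Python 3.11.15, numpy 2.4.6, pandas 2.3.3 and scipy 1.17.1.

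Named regions were the 12 with the widest gap, 8 more with the largest mean difference, every member on 6 gene lists, the 3 nearest on each side of the boundary and the 2 smallest p per comparison, of which 1 region is not reported here. The regions, lists and motifs were chosen with earlier results of these data known. Same-numbered libraries outside scramble shared no deviation, as given with the alternatives tried.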

Additional observations from a re-analysis of the deposited data

How the results depend on the processing

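The number of regions lowest in scramble depended on what was ranked. It was 480 by fold enrichment, 1025 by -log10 p (444 of the 480 among them), 149 of 3278 promoter regions when peaks had to cover at least 50% of a region, and 1526 by recovered pileup (379 of the 480), an alternative chosen after seeing the data. With the GC trend removed it was 394, but only 200 of the 480 were among these. Ranking among all regions called in all 12 libraries gave 584, and other TSS windows, another merging distance and a stricter q threshold gave 466 to 483. Without 1 library it ranged from 522 to 764, the highest without scramble replicate 2, since fewer ranks then have to be separated. Median GC was 54.5% over the region, against 50.04% for all promoter regions. From 250 bases before to 50 after the TSS it was 65.3%, against 62.0% for all promoter regions.

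No region passed in 44 of the 45 alternative fits among the other groups. By -log10 p, 2 regions passed for KAT2a against CPT1a knockout, among them Foxp3 (limma adjusted p = 0.0333, within a range of 0.0333 to 0.595 over the alternatives), where 44 promoter regions passed in all. All 36 alternative median differences kept their sign and moved by less than the spread between libraries of a group (2.45 percentiles). Some of the 36 could not move, since leaving out a library of a group outside the comparison cannot change the difference. The smallest of the 3 medians, 0.794 for KAT2a knockout against acetate, was 0.0911 by -log10 p and between 0.0318 and 1.38 without 1 library. With the replicate number as a replicate block, 0 regions passed. The medians (-4.58, -3.92 and 0.794) could not change under the block, since each group holds every replicate number. The numbers did not pair the libraries: deviations of same-numbered libraries correlated at -0.0513 to 0.0769 in 9 pairs. Read depth was not given. With 3 libraries per group, differences of -19.8 ± 3.99 percentiles at Kptn and 29.1 ± 7.08 at Epcam (SE, limma adjusted p = 0.245 and 0.308) did not pass the adjustment.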
